A study of Homo sapiens with 6 samples.

Results

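Interferon-stimulated genes were examined in T47D cells after knockdown of ELF5. The members are 55 type I interferon-inducible genes outside antigen presentation, listed by symbol and sorted by role into 10 sensors of foreign nucleic acid, 12 signalling genes and 33 effectors. All 55 were found among the 26364 genes of the deposited table. T47D is an established human cell line of luminal A breast cancer, and ELF5 is a transcription factor of the ETS family found in luminal cells of the mammary gland. One group of 3 libraries came from cells transfected with an siRNA against ELF5 (siELF5, Ambion AM16708), the other group of 3 from cells transfected with a control siRNA (siNC, Ambion 4390846), and RNA of both groups was taken 48 h after transfection. Each group received 1 siRNA, so differences owed to the target and differences owed to the 2 siRNA products cannot be told apart. Untransfected and interferon-treated cells were not analysed here. Whether the replicates of a group came from separate cultures is not said in the labels, so the spread behind each p-value is that between these libraries and may be technical.

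Values are normalised read counts, that is, reads assigned to a gene divided by a size factor per library. Libraries held 72.4 M to 83.7 M assigned reads in siELF5 and 66.8 M to 83.3 M in siNC, so counting error is small except for the lowest members. Among genes with 1 to 20 reads, 67.6% to 71.7% of the counts per library were even numbers, so a low count rests on fewer independent fragments than its number. ELF5 checked the labels, with 3678, 3725 and 3638 in siELF5 replicates 1, 2 and 3 against 13225, 13148 and 12910.2 in siNC replicates 1, 2 and 3. It was lower in every siELF5 library, at 27.8% to 28.4% of the siNC mean (log2 fold change -1.83, limma SE 0.0328, adjusted p = 3.26e-12). Luminal epithelial markers were abundant in all 6 libraries, among them KRT8 with a mean of 188742 in siELF5 and 250610.1 in siNC. Of the 8 luminal markers, 3 were higher in siELF5 and 2 lower at a limma adjusted p under 0.05, with 3 not called. Among all genes tested 23.8% were higher and 23.3% lower. Of the basal markers, KRT5 and KRT14 stayed at or below 16.4, while ACTA2 and TP63 were higher in siELF5.

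Type I interferons act through the receptor IFNAR1 and IFNAR2, the kinases JAK1 and TYK2, and a complex that contains STAT2 and IRF9, which binds a short element in promoters called the interferon-stimulated response element. The genes so induced include sensors that detect foreign RNA and trigger more interferon, signalling proteins that amplify or restrain the response, and effectors that block viral entry, translation and replication. Epithelial cells keep many of these genes at a low steady level without infection, and breast cancers differ in that level.

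Of the 55 members, 54 passed the filter of a mean of at least 10, and each of these also had a siNC mean of at least 10. With limma on log2(value + 1) and p-values adjusted over 16032 genes, 27 members were higher in siELF5 and 3 were lower at an adjusted p under 0.05. Among all genes tested 23.8% were higher and 23.3% were lower, so calls were frequent in both directions across the table. The median log2 fold change of the 54 members was 0.25, beside 0.00 for all genes tested, and 45 members had a positive value. The values ran from -0.35 for TRIM22 to 1.46 for UBA7. A called increase of at least 1.5-fold was found for 11 members (background 7.77%), and one of at least 2-fold for 3 members, UBA7, ISG15 and IFI6 (background 3.07%). After a GC correction, described below, ISG15 had a log2 fold change of 0.83, under 2-fold, while UBA7 had 1.34 and IFI6 1.14. All 3 siELF5 values lay above all 3 siNC values for 30 members (background 27.9%) and below them for 5 (background 28.0%). On recovered reads edgeR also called 27 members higher and 3 lower (background 23.8% and 23.4%). In the authors' deposited DESeq2 results, 26 members were higher and 3 lower. The matching shares among all genes of those results were not counted.

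**Figure D1:**
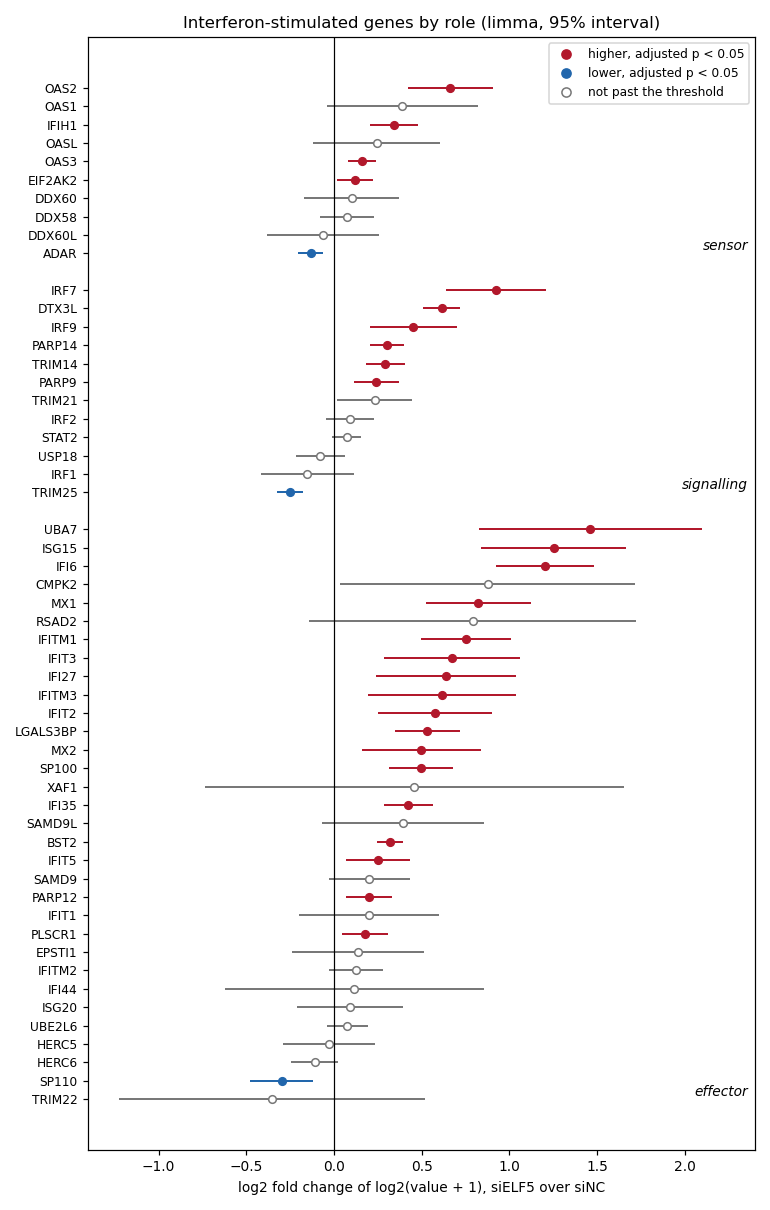
Log2 fold change of log2(value + 1), siELF5 over siNC, for the 54 tested members (points) with limma 95% intervals (lines), ordered by value within sensors, signalling genes and effectors. Filled points passed an adjusted p under 0.05. Most points lie right of 0, from TRIM22 at -0.35 to UBA7 at 1.46, and the 3 filled points left of 0 are ADAR, TRIM25 and SP110.

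By role, 4 of 10 sensors were higher and 1 was lower (median log2 fold change 0.14), 6 of 12 signalling genes were higher and 1 was lower (median 0.24), and 17 of 32 tested effectors were higher and 1 was lower (median 0.41). Among all genes tested 23.8% were higher and 23.3% lower, with a median log2 fold change of 0.00. No test was made between the roles. The 3 members with a called increase of at least 2-fold were effectors. In bulk RNA, more cells expressing a gene and more RNA per cell cannot be told apart.

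The members' promoters were searched for the interferon-stimulated response element. The search used its core, GAAA, then 2 bases of any kind, then GAAA, on either strand (read on the other strand as TTTC, 2 bases and TTTC; matches may overlap), in the 300 bases from 250 before to 50 after the RefSeq start of each gene (GRCh38.p14). Promoters of 45 members were matched, DDX58 under its current symbol RIGI; OAS2, OASL, IRF2, IRF7, USP18, UBA7, IFIT2, IFITM2, MX2 and TRIM22 were not. The core was present in 28 of these 45 (62.2%), beside 996 of 27305 promoters in the whole table (3.65%). The members were listed as interferon-inducible, and such genes are known for this element, so a high share follows from the choice of list. No test of enrichment was made. It was found in 5 of 8 sensors, 4 of 9 signalling genes and 19 of 28 effectors. Among members higher in siELF5 it was present in 18 of 22 (81.8%), among those not called in 9 of 19 (47.4%), and among the 3 lower members in none. These shares were not tested against each other. The search covered 1 annotated start per gene, so a core at another start of the same gene would be missed. A variant of the core would be missed as well. The promoters of 6 members are shown to set these groups side by side, chosen after their values were seen: 4 of members that were higher, 1 with 3 matches of a member that was not called (HERC5), and 1 of a member that was lower (TRIM25). The 4 higher members shown each hold a core. The higher members without one, IRF9, PARP9, SP100 and IFI35, are not shown, nor is any uncalled member without one. Capitals mark the core, letters run 5′ to 3′ along the gene, and positions count from the start base as 1.
IFI6, chr1:27672143-27672442, minus strand, 3 cores beginning at -156, -115 and -93: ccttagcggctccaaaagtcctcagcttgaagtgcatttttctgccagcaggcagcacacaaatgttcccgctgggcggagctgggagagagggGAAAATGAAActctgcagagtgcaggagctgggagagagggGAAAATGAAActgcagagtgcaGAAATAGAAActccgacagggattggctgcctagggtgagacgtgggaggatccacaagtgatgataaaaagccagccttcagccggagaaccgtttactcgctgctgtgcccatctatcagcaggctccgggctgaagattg
ISG15, chr1:1013247-1013546, plus strand, 2 overlapping cores beginning at -113 and -107: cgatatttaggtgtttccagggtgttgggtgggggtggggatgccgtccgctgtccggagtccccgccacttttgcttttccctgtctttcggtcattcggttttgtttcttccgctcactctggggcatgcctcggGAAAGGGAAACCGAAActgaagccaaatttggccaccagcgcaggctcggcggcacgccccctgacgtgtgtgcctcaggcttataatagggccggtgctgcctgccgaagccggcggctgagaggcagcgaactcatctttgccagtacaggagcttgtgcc
DTX3L, chr3:122564088-122564387, plus strand, 1 core beginning at -6: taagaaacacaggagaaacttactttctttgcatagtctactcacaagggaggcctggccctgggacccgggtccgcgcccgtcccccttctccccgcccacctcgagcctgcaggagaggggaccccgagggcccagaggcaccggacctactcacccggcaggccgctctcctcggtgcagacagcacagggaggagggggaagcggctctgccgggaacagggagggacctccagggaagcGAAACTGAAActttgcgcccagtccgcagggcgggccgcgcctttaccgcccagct
MX1, chr21:41420308-41420607, plus strand, 1 core beginning at 12: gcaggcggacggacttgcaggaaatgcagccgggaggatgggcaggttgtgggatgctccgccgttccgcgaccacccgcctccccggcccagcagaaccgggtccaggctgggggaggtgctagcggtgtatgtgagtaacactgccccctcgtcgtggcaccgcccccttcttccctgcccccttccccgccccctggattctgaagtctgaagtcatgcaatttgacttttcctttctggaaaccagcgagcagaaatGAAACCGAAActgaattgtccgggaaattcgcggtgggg
HERC5, chr4:88456869-88457168, plus strand, 3 cores in the TTTC orientation beginning at -125, -119 and -74, the first pair overlapping: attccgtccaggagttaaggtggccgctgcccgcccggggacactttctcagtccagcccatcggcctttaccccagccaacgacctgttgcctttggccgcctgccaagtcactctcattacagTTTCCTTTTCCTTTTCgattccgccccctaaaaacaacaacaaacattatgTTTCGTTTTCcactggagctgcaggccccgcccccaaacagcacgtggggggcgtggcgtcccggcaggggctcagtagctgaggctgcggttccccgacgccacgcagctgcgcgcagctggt
TRIM25, chr17:56914000-56914299, minus strand, no core in the window: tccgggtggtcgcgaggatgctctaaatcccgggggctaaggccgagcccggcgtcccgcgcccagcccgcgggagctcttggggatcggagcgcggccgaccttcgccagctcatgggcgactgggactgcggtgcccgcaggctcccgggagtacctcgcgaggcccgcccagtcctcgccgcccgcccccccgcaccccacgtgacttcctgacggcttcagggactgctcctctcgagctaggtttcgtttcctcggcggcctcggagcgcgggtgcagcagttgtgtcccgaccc
A match is a description of letters, and no binding was measured.

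Among sensors OAS2 had the largest called change. OAS2, an oligoadenylate synthetase that makes the messenger activating RNase L on double-stranded RNA, had 979, 903 and 758 in siELF5 replicates 1, 2 and 3, against 637, 528 and 502 in siNC replicates 1, 2 and 3; values below are in the same order. Every siELF5 library was above every siNC library, and the log2 fold change was 0.66 (limma SE 0.109, adjusted p = 0.000293). IFIH1, which encodes MDA5, the cytosolic sensor of long double-stranded RNA, had 1315, 1290.4 and 1194 in siELF5 against 992, 999.7 and 1005 in siNC. The siNC values lay close together and below the siELF5 ones, for a log2 fold change of 0.34 (limma SE 0.0605, adjusted p = 0.00052). OAS3, the synthetase that favours long double-stranded RNA, had 12166, 11652 and 11594 in siELF5 against 10566, 10312 and 10869.8 in siNC. Its groups were apart but close, with a log2 fold change of 0.16 (limma SE 0.034, adjusted p = 0.00212).

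ADAR, which edits adenosine to inosine in double-stranded RNA and so limits MDA5 sensing, went the other way. It had 37775, 36663 and 37861 in siELF5 against 41782, 41564 and 39847 in siNC. All siELF5 values were lower, and the log2 fold change was -0.13 (limma SE 0.0296, adjusted p = 0.00252). EIF2AK2, the kinase PKR that halts translation on double-stranded RNA, averaged 3735 ± 147 in siELF5 and 3444 ± 116 in siNC (SD, n = 3 each). Its groups overlapped and it passed narrowly, at a log2 fold change of 0.12 (limma SE 0.0446, adjusted p = 0.0463). It missed the threshold without siELF5 replicate 1, siELF5 replicate 2, siNC replicate 2 or siNC replicate 3 (log2 fold change 0.10 to 0.11, adjusted p 0.0985 to 0.172).

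The other 5 sensors did not pass. OAS1, the first of the synthetases, had 237, 303 and 167 in siELF5 against 197, 145 and 187 in siNC. The third siELF5 library lay inside the siNC range and the other two above it, and the log2 fold change was 0.39 (limma adjusted p = 0.124). OASL, an OAS relative that boosts RIG-I signalling, had a log2 fold change of 0.24 (limma adjusted p = 0.25). DDX58, which encodes RIG-I, the sensor of uncapped RNA ends, had a log2 fold change of 0.08 (limma adjusted p = 0.401). DDX60, a helicase described as a RIG-I cofactor, and its close copy DDX60L had log2 fold changes of 0.10 and -0.06 (limma adjusted p = 0.532 and 0.753), and reads shared by these copies could be assigned to either. Without siELF5 replicate 3, OAS1 and DDX58 passed, at log2 fold changes of 0.62 and 0.15 (limma adjusted p = 0.0133 and 0.0484).

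Among signalling genes the ADP-ribosylation group was higher as a whole, 3 of 3 members (background 23.8%). DTX3L, a ubiquitin ligase that pairs with PARP9 and enhances interferon signalling, had 2415, 2399 and 2403 in siELF5 against 1556, 1556 and 1604 in siNC. The libraries of each group were nearly equal and far from those of the other group, and with a log2 fold change of 0.61 (SE 0.046) DTX3L had the smallest adjusted p of all members (limma adjusted p = 4.3e-07). PARP9, its partner, had 2906, 2933 and 2624 in siELF5 against 2539, 2271 and 2346 in siNC. The groups did not overlap, though the third siELF5 library was close to the first siNC library, and the log2 fold change was 0.24 (limma SE 0.0571, adjusted p = 0.00376). PARP14, a mono-ADP-ribosyltransferase encoded near them, had 4610.5, 4515 and 4283 in siELF5 against 3665, 3705 and 3501 in siNC. Its groups were well apart, with a log2 fold change of 0.30 (limma SE 0.0427, adjusted p = 9.11e-05).

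Of the transcription factors, IRF7 and IRF9 were higher and STAT2, IRF1 and IRF2 were not called. IRF7, the factor that drives interferon-alpha genes, had 365, 343 and 299.9 in siELF5 against 153, 185 and 192 in siNC. All siELF5 values were above all siNC values, with a log2 fold change of 0.92 (limma SE 0.129, adjusted p = 8.4e-05), but its transcript has the highest GC content of the members (66.8%) and after GC correction the value was 0.22 (limma adjusted p = 0.134). IRF9, the DNA-binding subunit of its complex with STAT2, had 779.7, 713 and 669.6 in siELF5 against 631, 454 and 508 in siNC. The groups did not overlap, and the log2 fold change was 0.45 (limma SE 0.112, adjusted p = 0.0051). IRF9 shares 48.4% of its exon bases with an overlapping gene of the same strand, AL136295.5, so how its reads were split is uncertain. STAT2 had a log2 fold change of 0.07 (limma adjusted p = 0.108) and IRF2, often a repressor, 0.09 (limma adjusted p = 0.238), both without overlap of the groups. IRF1, an early activator, had a log2 fold change of -0.15 (limma adjusted p = 0.319).

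The TRIM proteins of the RIG-I pathway split. TRIM14, an adaptor at the mitochondrial protein MAVS, had 2070.2, 2119 and 2063 in siELF5 against 1673, 1756 and 1674 in siNC. Every siELF5 library was higher, for a log2 fold change of 0.29 (limma SE 0.048, adjusted p = 0.000291). TRIM25, the oestrogen-responsive ubiquitin ligase known for activating RIG-I, had 13689, 13228 and 13651 in siELF5 against 16385, 16157 and 15687 in siNC. Every siELF5 library was lower, and the log2 fold change of -0.25 (limma SE 0.0312, adjusted p = 3.46e-05) had the smallest adjusted p among the 3 lower members. TRIM21, a cytosolic antibody receptor and ubiquitin ligase, had a log2 fold change of 0.23 and missed the threshold (limma adjusted p = 0.0665), but passed without siNC replicate 1 (0.32, limma adjusted p = 0.0153). USP18, which removes ISG15 from proteins and blocks the receptor, had a log2 fold change of -0.08 (limma adjusted p = 0.333). Its siELF5 values were all below its siNC values.

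Effectors held the largest fold changes, and the ISG15 system was split among its enzymes. ISG15, a ubiquitin-like protein attached to other proteins, had 177, 179 and 137 in siELF5 against 59.8, 62.7 and 83.0 in siNC. The lowest siELF5 library was well above the highest siNC library, and the log2 fold change was 1.25 (limma SE 0.188, adjusted p = 0.000147). After GC correction the value of ISG15 was 0.83 (limma adjusted p = 0.000924, transcript GC content 63.4%). UBA7, its activating enzyme, had 55.2, 76.5 and 53.4 in siELF5 against 18.4, 29.5 and 18.2 in siNC. The groups were apart at these low counts, with a log2 fold change of 1.46 (limma SE 0.29, adjusted p = 0.00118). The later enzymes did not pass. UBE2L6, the conjugating enzyme, had a log2 fold change of 0.08 (limma adjusted p = 0.248). HERC5, the main human ligase, had a log2 fold change of -0.03 (limma adjusted p = 0.857). Its relative HERC6 had a log2 fold change of -0.11 (limma adjusted p = 0.149), with all siELF5 values below all siNC values. The 95% interval for HERC5 ran from -0.29 to 0.23, and that for UBE2L6 from -0.04 to 0.19.

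IFI6, an endoplasmic reticulum and mitochondrial protein that inhibits cell death and viral replication, had 887, 873 and 679.9 in siELF5 against 325, 316 and 419 in siNC. The groups were far apart, with a log2 fold change of 1.20 (limma SE 0.126, adjusted p = 8.16e-06). IFI27, a mitochondrial protein of the same family, had 122, 127 and 136 in siELF5 against 66.7, 83.0 and 99.2 in siNC. Its siELF5 libraries were all higher, at a log2 fold change of 0.64 (limma SE 0.182, adjusted p = 0.0115). XAF1, a partner of the apoptosis inhibitor XIAP, had 48.9, 21.6 and 8.22 in siELF5 against 21.8, 14.8 and 10.1 in siNC. The siELF5 libraries spanned the whole siNC range, and the log2 fold change of 0.46 did not pass (limma adjusted p = 0.526).

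Of the MX GTPases, which bind incoming viral nucleocapsids, both were higher (background 23.8%). MX1 had 1913, 1965 and 1277 in siELF5 against 1082, 899 and 889.6 in siNC. The third siELF5 library lay between the other siELF5 libraries and siNC, and the log2 fold change was 0.82 (limma SE 0.136, adjusted p = 0.000302). MX2, which restricts nuclear entry of viral genomes, averaged 168 ± 11.3 in siELF5 and 119 ± 18.2 in siNC (SD, n = 3 each), with a log2 fold change of 0.50 (limma SE 0.154, adjusted p = 0.018). MX2 missed the threshold without siELF5 replicate 1 or siNC replicate 2 (0.45 and 0.41, limma adjusted p = 0.0726 and 0.0757).

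The IFIT genes encode related antiviral proteins that bind foreign RNA or act through such a partner, as IFIT3 does through IFIT1. Of the 4 genes, 3 were higher (background 23.8%). IFIT3 had 239, 173 and 152 in siELF5 against 124, 118 and 105 in siNC. The first siELF5 library was the highest and no siNC library reached the lowest siELF5 one, for a log2 fold change of 0.67 (limma SE 0.176, adjusted p = 0.00721). IFIT2 had 199, 234 and 237 in siELF5 against 166, 125 and 159.9 in siNC. Its groups were apart as well, with a log2 fold change of 0.57 (limma SE 0.146, adjusted p = 0.00599). IFIT5, with a log2 fold change of 0.25 (limma SE 0.0821, adjusted p = 0.0231), missed the threshold without siELF5 replicate 1, siELF5 replicate 2, siNC replicate 1 or siNC replicate 2 (0.20 to 0.25, limma adjusted p = 0.051 to 0.101). IFIT1 had 843, 695 and 444 in siELF5 against 619, 482 and 575 in siNC. The third siELF5 library was below every siNC library and the first was above them, so the groups overlapped (log2 fold change 0.20, limma adjusted p = 0.395). The 4 genes are related in sequence, and the sources used here do not say how reads that fit more than 1 of them were handled.

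Membrane restriction factors were higher in 3 of 4 cases (background 23.8%). IFITM1, which blocks viral fusion at the cell surface, had 509.9, 601 and 443 in siELF5 against 309, 284 and 322 in siNC. The groups were well apart, with a log2 fold change of 0.75 (limma SE 0.116, adjusted p = 0.000179). BST2, the tether that holds budding virions at the surface, had 10597, 10598 and 10245 in siELF5 against 8306, 8501 and 8419 in siNC. Both groups were tight and apart, with a log2 fold change of 0.32 (limma SE 0.0318, adjusted p = 5.47e-06). IFITM3, the endosomal relative, had a log2 fold change of 0.62 (limma SE 0.191, adjusted p = 0.0182), and IFITM2 had a log2 fold change of 0.13 (limma adjusted p = 0.152). IFITM3 missed the threshold without siELF5 replicate 2, siNC replicate 1 or siNC replicate 2 (0.47 to 0.59, limma adjusted p = 0.0585 to 0.0932). The IFITM genes are closely related in sequence and 32.5% of the exon bases of IFITM1 overlap IFITM2, so the split of reads among them is uncertain.

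**Figure D2:**
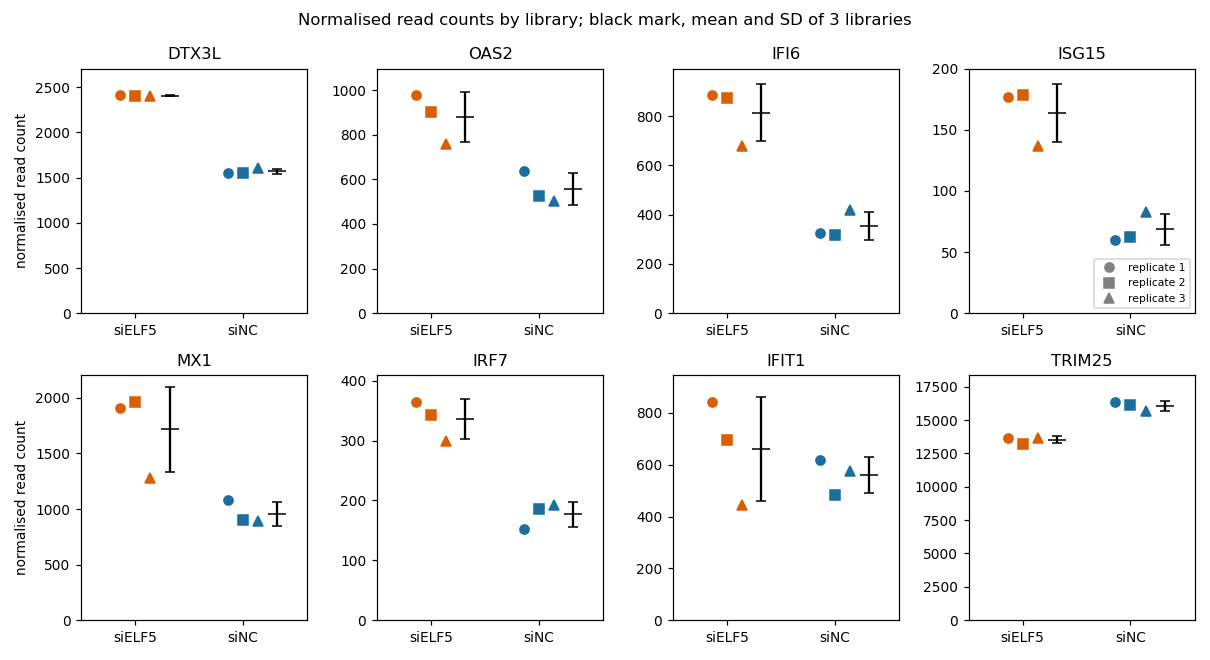
Normalised read counts of 8 genes in each library (orange, siELF5; blue, siNC; marker shape, replicate), with the mean and SD of 3 libraries in black and axes from 0. The groups are apart for DTX3L, OAS2, IFI6, ISG15, MX1, IRF7 and TRIM25, with TRIM25 lower in siELF5, and overlap for IFIT1, whose siELF5 libraries span 444 to 843.

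Nuclear factors differed in direction. SP100, a component of PML nuclear bodies that represses viral genomes, had 784, 766 and 678 in siELF5 against 514, 523 and 539 in siNC. All siELF5 values were higher, for a log2 fold change of 0.50 (limma SE 0.0804, adjusted p = 0.000268). SP110, a nuclear body protein linked to control of intracellular bacteria, had 1097, 1031 and 974 in siELF5 against 1394, 1305 and 1124 in siNC. All siELF5 values were lower, for a log2 fold change of -0.30 (limma SE 0.0805, adjusted p = 0.00862). The kit does not mark strand, and 20.9% of the exon bases of SP110 are overlapped by a gene of the other strand, AC009950.1. TRIM22, a ubiquitin ligase with antiviral activity, averaged 20.6 ± 6.07 in siELF5 and 27.6 ± 12.9 in siNC (SD, n = 3 each), with overlapping groups (log2 fold change -0.35, limma adjusted p = 0.501).

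Of the remaining called effectors, LGALS3BP, IFI35, PARP12 and PLSCR1, each was below 1.5-fold. LGALS3BP, a secreted ligand of galectins, had 1687, 1699 and 1985 in siELF5 against 1114, 1231 and 1374 in siNC. The groups were apart, with a log2 fold change of 0.53 (limma SE 0.0824, adjusted p = 0.000192) that was 0.31 after GC correction (transcript GC content 60.5%). IFI35, a cytosolic partner of NMI, had 1283, 1283 and 1340.2 in siELF5 against 1015, 921 and 977 in siNC. Its groups were apart too, with a log2 fold change of 0.42 (limma SE 0.0612, adjusted p = 0.00011). PARP12, which inhibits translation of viral RNA, had a log2 fold change of 0.20 (limma SE 0.058, adjusted p = 0.0128), and PLSCR1, a phospholipid scramblase that enhances the interferon response, had a log2 fold change of 0.18 (limma SE 0.0591, adjusted p = 0.0262). PARP12 missed the threshold without siELF5 replicate 1 or siNC replicate 2 (0.18 and 0.19, limma adjusted p = 0.0554 and 0.0542), and PLSCR1 without siELF5 replicate 1, siELF5 replicate 2 or siNC replicate 2 (0.13 to 0.17, limma adjusted p = 0.0809 to 0.124).

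None of the 3 enzymes of nucleic acids and nucleotides, CMPK2, RSAD2 and ISG20, passed. CMPK2, a mitochondrial nucleotide kinase encoded beside RSAD2, had 32.6, 17.7 and 20.5 in siELF5 against 11.5, 14.8 and 10.1 in siNC. The groups were apart, yet the log2 fold change of 0.87 missed the threshold (95% interval 0.04 to 1.71, limma adjusted p = 0.0796). RSAD2, or viperin, which makes a nucleotide that ends viral RNA chains, had 36.2, 23.6 and 12.3 in siELF5 against 13.8, 11.1 and 12.1 in siNC. The third siELF5 library lay within the siNC range, and the log2 fold change of 0.79 did not pass (limma adjusted p = 0.148). ISG20, an exonuclease, had a log2 fold change of 0.09 (limma adjusted p = 0.626). SAMD9 and its close copy SAMD9L, which block translation, had log2 fold changes of 0.20 and 0.39 (limma adjusted p = 0.135 and 0.147), but SAMD9 passed without siNC replicate 1 (0.32, limma adjusted p = 0.0141) and SAMD9L without siELF5 replicate 2 (0.60, limma adjusted p = 0.0358).

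EPSTI1, an interferon-induced gene of epithelial and stromal cells, had a log2 fold change of 0.14 (limma adjusted p = 0.541), and IFI44 had a log2 fold change of 0.12 (limma adjusted p = 0.806). IFI44L, a relative of IFI44, was below the filter, with 14, 2 and 3 reads in siELF5 against 0, 2 and 2 in siNC. No fold change is given for it, since most libraries were at or under a floor of 3 reads. Exon bases shared with another gene, which leave the split of reads uncertain, also amounted to 38.3% for XAF1, 22% for IRF1, 21.3% for IFITM3, 10.7% for TRIM22 and 10.3% for IFIT2.

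Levels differed widely between members when set per kilobase of the longest transcript. BST2 had the highest level, at 10285 normalised reads per kilobase in siELF5 and 8252 in siNC, followed by ADAR at 5263 in siELF5 and 5774 in siNC and TRIM25 at 2358 in siELF5 and 2804 in siNC. At the other end were TRIM22 at 6.88 in siELF5 and 9.25 in siNC, RSAD2 at 6.83 in siELF5 and 3.51 in siNC, CMPK2 at 8.18 in siELF5 and 4.20 in siNC, XAF1 at 7.24 in siELF5 and 4.30 in siNC, and IFI44L at 1.01 in siELF5 and 0.220 in siNC. ADAR and TRIM25, which are among the 3 lower members, were thus among the most abundant, while UBA7, with the highest fold change, was at 18.7 in siELF5 and 6.68 in siNC.

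The siELF5 libraries were not alike across the members. The median deviation of the 54 members from their siNC mean, on the log2(value + 1) scale, was 0.32 in siELF5 replicate 1, 0.32 in replicate 2 and 0.15 in replicate 3. Replicate 3 was the lowest siELF5 library for 33 of 54 members, beside 41.1% of all genes tested. Without it 32 members were called higher (background 22.7%), the median log2 fold change over all members tested was 0.30, and DDX58, OAS1, UBE2L6, IFIT1 and RSAD2 were gained while none was lost. IFIT1 had a log2 fold change of 0.46 in that fit (limma adjusted p = 0.0092) and RSAD2 had a log2 fold change of 1.19 (limma adjusted p = 0.0346), and MX1 had 1.02 in place of 0.82. Leaving out siNC replicate 2 gave 21 higher members, the lowest count among the fits without 1 library. Over all genes, 7559 were called with every library kept and 6167 in that fit, also the lowest count among these fits. Of the 30 called members, 24 stayed past the threshold in all 6 of these fits. The matching share among all called genes was not counted.

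**Figure D3:**
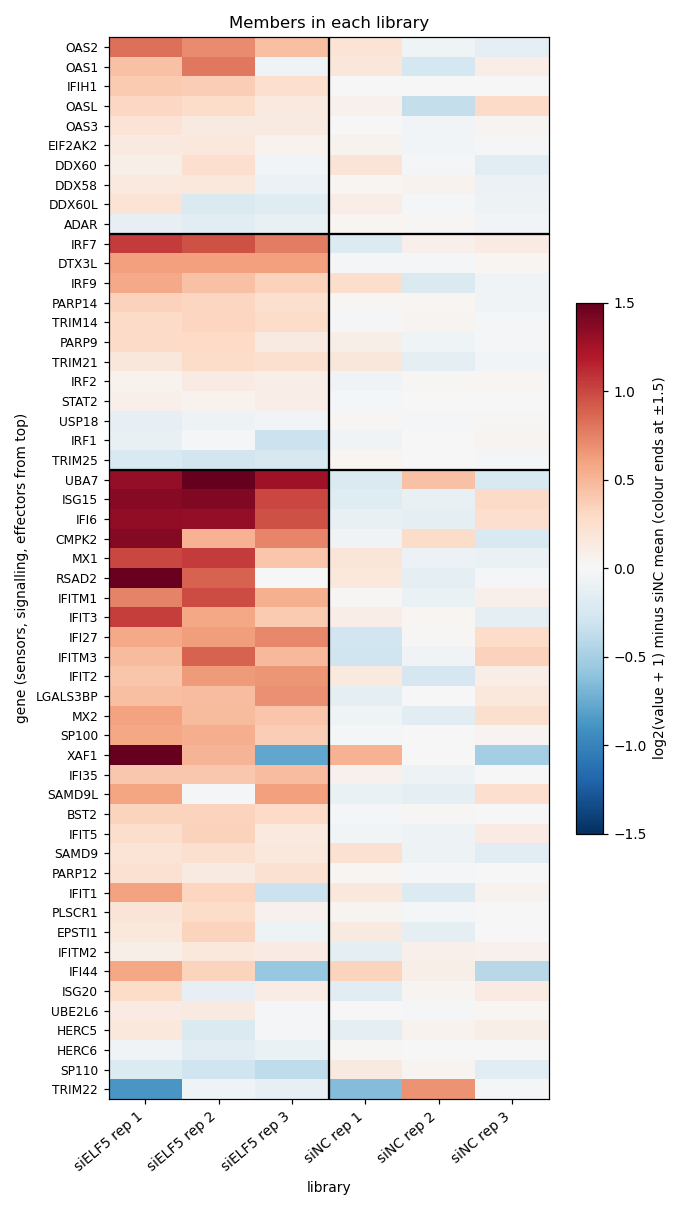
Deviation of log2(value + 1) from the siNC mean for 54 members (rows, with sensors, signalling genes and effectors from top) in each library (columns, siELF5 left of siNC); red is above and blue below the siNC mean, and the colour ends at ±1.5. The top row of each block (OAS2, IRF7 and UBA7) is red in all siELF5 libraries, and siELF5 replicate 3 is paler than replicates 1 and 2, with medians of 0.15, 0.32 and 0.32.

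GC content moved with the groups. A library GC score, the median deviation of the 10% of genes richest in GC minus that of a middle class, was 0.222, 0.277 and 0.221 in siELF5 replicates 1, 2 and 3 and -0.395, -0.218 and -0.0724 in siNC replicates 1, 2 and 3, without overlap. The members' transcripts had a median GC content of 48.2%, beside 48.6% for all genes tested, and 3 of 54 tested members were above 60%: IRF7, ISG15 and LGALS3BP. After a GC correction within each library 29 members were higher and 3 lower (background 21.1% and 29.1%), with a median log2 fold change of 0.25. IRF7 lost its call and STAT2, TRIM21 and SAMD9 gained one, while ISG15 had a log2 fold change of 0.83 (limma adjusted p = 0.000924). With the GC score as a covariate, 5 members stayed higher and none was lower (background 3.17% and 3.98%), the median log2 fold change was 0.27 and the median standard error was 0.246, beside 0.110 without it. The 5 were OAS2, IRF9, DTX3L, PARP14 and MX1. In the same fit the log2 fold changes of IFITM3, IFI27 and IFIT5 were below 0 (-0.40, -0.14 and -0.0095) and that of SP110 was above 0 (0.13), none of them past the threshold. Since the groups did not overlap in this score, the score and the siRNA cannot be told apart in that fit.

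**Figure D4:**
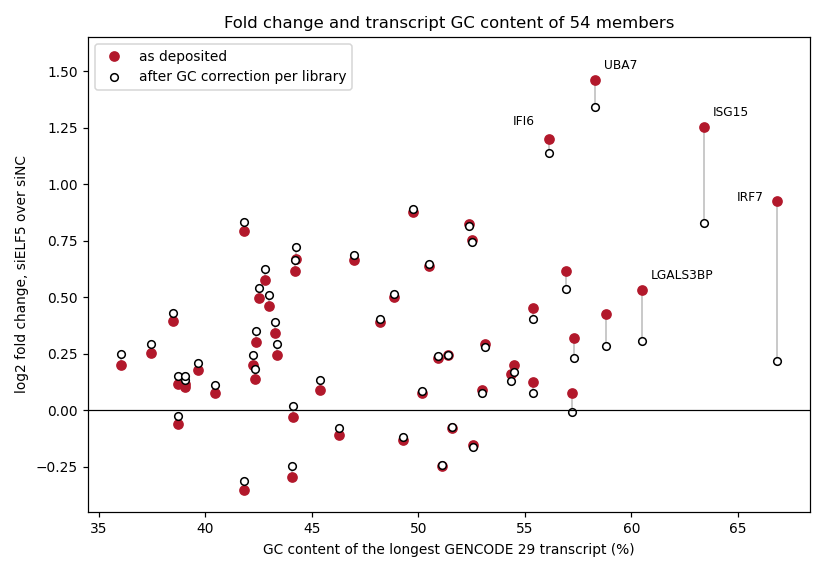
Log2 fold change, siELF5 over siNC, of 54 members against the GC content of their longest transcript (%), before (red) and after (open) a GC correction within each library; grey lines join the values of 1 gene. The pair of values is close for most members, and the widest gap is that of IRF7, with 0.92 before and 0.22 after the correction.

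Interferon ligand genes had almost no reads. The 10 ligand genes listed summed to 2, 4 and 6 reads in siELF5 and to 0, 2 and 4 reads in siNC. IFNB1, IFNA1, IFNA2, IFNK and IFNG had 0 reads in all 6 libraries, which allows up to 3 reads per library, or 0.0359 to 0.0414 reads per M assigned reads in siELF5 and 0.0360 to 0.0449 in siNC. This limit covers counting error only and takes each read as an independent fragment; as low counts were mostly even, the true limit is higher.

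Among receptors, Janus kinases and STATs the log2 fold changes given here lie between -0.32 and 0.29. IL10RB, a subunit of the interferon-lambda and interleukin receptors, averaged 2342 ± 64.0 in siELF5 and 1910.1 ± 61.0 in siNC (SD, n = 3 each), a log2 fold change of 0.29 (limma adjusted p = 0.000295). STAT3 had a log2 fold change of 0.13 (limma adjusted p = 0.0022) and IFNAR1 0.14 (limma adjusted p = 0.00318). IFNLR1, a receptor subunit for interferon-lambda chosen after its values were seen, had a log2 fold change of -0.32 (limma adjusted p = 0.0289). Of 13 tested adaptors and kinases that lead to interferon induction, DHX58, the regulator LGP2, was higher (0.31, limma adjusted p = 0.00893) and none was lower. The shares among all genes tested were 23.8% higher and 23.3% lower. DHX58 missed the threshold after GC correction (0.20, limma adjusted p = 0.0677) and without siELF5 replicate 1 (0.25, limma adjusted p = 0.0527).

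Of 8 negative regulators 2 were higher and 3 lower, near the shares among all genes (23.8% and 23.3%). SOCS3, a feedback inhibitor of Janus kinases, had 121, 112 and 105 in siELF5 against 259.9, 208 and 253 in siNC. Its siELF5 values were all below its siNC values, with a log2 fold change of -1.08 (limma SE 0.142, adjusted p = 5.06e-05). PTPN11, the phosphatase SHP2, had a log2 fold change of -0.27 (limma adjusted p = 6.12e-06), and PIAS3, a STAT3 inhibitor, had a log2 fold change of -0.22 (limma adjusted p = 0.000132). PIAS1 and PTPN2, chosen after their values were seen, had log2 fold changes of 0.14 and 0.13 (limma adjusted p = 0.0413 and 0.0362).

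Other interferon-inducible genes outside the member list gave 12 higher and 8 lower of 34 tested, beside 23.8% higher and 23.3% lower among all genes. LY6E, a surface protein that alters viral entry, averaged 31978 ± 483 in siELF5 and 15894 ± 1826 in siNC (SD, n = 3 each), a log2 fold change of 1.01 (limma adjusted p = 6.79e-08) that was 0.53 after GC correction (transcript GC content 64.2%). IFI30, a lysosomal thiol reductase, averaged 1156 ± 38.3 in siELF5 and 571 ± 19.9 in siNC, a log2 fold change of 1.02 (limma adjusted p = 1.39e-07). SLFN5, a nuclear schlafen protein, had a log2 fold change of 0.43 (limma adjusted p = 1.32e-06). Over all 66 tested genes of these pathway lists 19 were higher and 12 lower, near the same background shares of 23.8% and 23.3%, with a median log2 fold change of 0.06.

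Markers of other cell types were mostly near 0. The 7 leukocyte markers summed to 19.0 to 31.8 in siELF5 and 16.1 to 28.6 in siNC, mostly CD14; PTPRC was at 0 in all siELF5 libraries and CLEC4C in all 6. The 3 endothelial markers summed to 12.3 to 14.5 in siELF5 and 26.4 to 37.8 in siNC, and the 6 fibroblast markers, mostly COL1A1, to 3378 to 3888 in siELF5 and 4227 to 5409 in siNC. The 4 basal epithelial markers summed to 931 to 992 in siELF5 and 524 to 555 in siNC, with ACTA2 and TP63 higher and KRT5 and KRT14 below the filter. The part of the basal, endothelial and fibroblast markers in the members' values was not tested.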

How the data were processed

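RNA-seq of 3 siELF5 and 3 siNC libraries was taken from 1 deposited table. Per the submitters' processing notes, the build hg19, STAR 2.6 (an aligner), featureCounts 1.6.3 and Subread (read counting) and DESeq2 1.22.1 were used; the sources used here do not give their order, their settings or how shared reads were handled. Per the labels' protocols, libraries were made with a TruSeq RNA kit v2. The deposited signal values per library are gene counts divided by a size factor, and every non-zero value was a whole multiple of its column's smallest step (100% of values, tolerance 1e-06), so whole reads were recovered. The deposited log2 fold changes with their standard errors, the deposited test score, and the deposited p-values and adjusted p-values are the authors' DESeq2 results, per the file headers, and were used only where named.

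Differences were tested two-sided with limma 3.58.1 (R 4.3.3) on log2(value + 1), with the trend option, Benjamini-Hochberg adjustment and a threshold of 0.05; the 16032 genes tested had a mean of at least 10. This scale understates changes of low genes. On recovered reads edgeR 4.0.16 (quasi-likelihood) and DESeq2 1.42.0 were alternatives, among 20 in all. The longest GENCODE 29 transcript gave each gene's GC content and length (93.1% of tested genes). The correction subtracts a loess curve (span 0.3) per library. Promoters came from RefSeq (GRCh38.p14), and exon overlaps from GENCODE 29; neither is the counts' build.

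Members, lists and tests were chosen with earlier results of these data known. Named genes were all members, with the value in every library for the 24 called members with the smallest adjusted p, up to 3 called genes per pathway list by adjusted p, and ELF5; values per library of members that were not called, and other genes so marked, were chosen after their values were seen. Replicates were grouped by the sample titles, and the table's columns, which do not carry these titles, were matched to them by group word and replicate number. Replicates of a group differed beyond sampling noise (chi-square per degree of freedom 4.37 to 12.0), so each counted as 1 sample. Some items of the pathway lists are not reported here.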

Additional observations from a re-analysis of the deposited data

How the results depend on the processing

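The 20 alternatives changed the pseudocount, filter, scaling, trend, library set, replicate block, GC handling or test. Of 1274 values for 64 named genes other than ELF5, 1165 kept direction and side of the threshold, 64 kept direction but lost the call, 18 kept direction and gained one, and 27 changed sign, with or without a change of call. Without 1 library each, 21 to 32 members were higher and 3 in every fit lower; sensors higher ranged from 3 to 6, signalling genes from 6 to 7, effectors from 12 to 20, all called genes from 6167 to 7324, other pathway genes from 14 to 20 higher and 9 to 11 lower, and the ELF5 log2 fold change from -1.84 to -1.82. The library GC score, as a covariate, left 5 members higher (27 without it) and 0 lower (3), sensors higher 1 (4), signalling genes 3 (6), effectors 1 (17), all called genes 1147 (7559), and other pathway genes 3 higher (19) and 3 lower (12). In that fit the median standard error of the members was 0.246, beside 0.110 without the covariate. Quantile scaling gave 22 members higher and 5 lower, the added lower ones being IRF1 and HERC6. It called 7434 genes over the whole table, with a median log2 fold change of 0.20 for the members and -0.027 for all genes. Same-numbered replicates did not deviate together (r = 0.0146, -0.0345 and -0.0560), so numbers were not taken as pairs; with the replicate block 26 members were higher and 3 lower, EIF2AK2 missing the threshold (limma adjusted p = 0.06), and 7174 genes were called. DESeq2 on recovered reads called 27 members higher and 3 lower, and 7292 genes over the whole table. A siNC mean below 100 limits the precision of RSAD2, CMPK2, XAF1, IFI44, IFI44L, TRIM22, UBA7, ISG15, IFI27 and SAMD9L.

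The log2 fold changes that changed sign follow, and the cause was not tested. Under the GC score covariate, DDX60L had 0.26, OASL -0.035, IRF2 -0.034, UBE2L6 -6.73e-05, IFIT5 -0.0095, IFITM2 -0.18, IFITM3 -0.40, ISG20 -0.24, IFI27 -0.14 and SP110 0.13. After GC correction, without and with the replicate block, UBE2L6 had -0.011 and HERC5 0.020. Quantile scaling gave DDX60 -0.041, ISG20 -0.082, IFI44 -0.036 and EPSTI1 -0.045, and equal totals gave HERC5 0.0012. Without 1 library each, DDX60L ranged from -0.20 to 0.014, HERC5 from -0.13 to 0.065, IFIT1 from -0.0011 to 0.46, ISG20 from -0.0048 to 0.19, XAF1 from -0.14 to 1.08 and IFI44 from -0.11 to 0.46.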
